A study of Caenorhabditis elegans with 2 samples.

Results

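The nuclear tRNA genes of the X chromosome of Caenorhabditis elegans were described by where the transcription factor ZIP-11 was found on them. All genes of biotype tRNA that the Ensembl WBcel235 annotation places on X were taken, a rule that uses no binding value. They numbered 276 of the 612 nuclear tRNA genes, and the other 336 lay on the autosomes. A gene was called bound when the summit of a peak in the authors' thresholded list of both samples together lay within 250 bp of its annotated 5′ end, here called the TSS. By that rule 73 of the 276 X genes were bound (26.4%, 95% Wilson interval 21.6 to 32.0), against 66 of the 336 autosomal genes (19.6%, 15.7 to 24.2). The same rule called 22.7% of all nuclear tRNA genes and 0.817% of all annotated nuclear genes of any type. Genes of the same sequence and neighbouring genes that share a peak are not replicates, so intervals cover counting over genes only, and the difference between X and autosomes was not tested.

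The measurements came from chromatin immunoprecipitation with sequencing (ChIP-seq) of whole worms in 1 group of 2 samples, labelled biological replicates 1 and 2. All worms were of strain OP761, which carries the transgene wgIs761, a zip-11 gene with a TY1, EGFP and 3xFLAG tag, together with unc-119(+) on the mutant background unc-119(tm4063). They were L4 larvae aged 52.5 hours, synchronised as starved L1 larvae after bleaching, and their sex was not recorded. Chromatin was broken by sonication and precipitated with an antibody against GFP. The tagged protein came from an added transgene, and no untagged worms were among the samples. Peak lists hold DNA positions and no transcript levels, so the label whole worm could not be checked against marker genes. ZIP-11 belongs to the basic leucine zipper family of transcription factors.

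Transfer RNA genes are short and are transcribed by RNA polymerase III. Their promoter lies inside the transcribed sequence, as an A box near the start and a B box farther in, which the factor TFIIIC recognises, and a run of T on the coding strand ends transcription. An isotype is the amino acid a tRNA carries, and tRNAs of 1 isotype can differ in the anticodon that reads the codon. Worm tRNA genes occur in many identical copies spread over the chromosomes, often inside introns of protein-coding genes.

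The genes that the results turn on are shown here as the RefSeq genome of WBcel235 gives them, 5′ to 3′. The first 4 were bound and lay at 4 of the strongest X regions, and the next 3 come from the isotypes Arg, Gln and His, in which no X gene was bound. Only fixed letters are marked, and other forms of the A box core, such as tagctcag in C33G3.t2, F15G9.t1 and R11.t1, stay in lower case. In these 7 genes capitals mark each match to TGGCNNAG, a form of the A box core, and to GTTCGA or GTTCAA, the core of the B box. A repeated match within a gene, as in ZK563.t1 and R11.t1, is a match of letters and is not taken as another box. They lie, in the order of the lines, at chrX:3371422-3371493 (minus strand), chrX:14063946-14064018 (minus), chrX:9743589-9743660 (plus), chrX:16209769-16209852 (minus), chrX:14115691-14115763 (plus), chrX:9090627-9090698 (minus) and chrX:14135045-14135116 (plus).
ZK563.t1 (Thr): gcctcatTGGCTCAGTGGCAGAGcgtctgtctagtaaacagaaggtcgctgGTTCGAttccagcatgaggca
C33G3.t2 (Lys): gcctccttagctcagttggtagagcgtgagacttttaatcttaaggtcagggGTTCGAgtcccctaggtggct
F15G9.t1 (Ala): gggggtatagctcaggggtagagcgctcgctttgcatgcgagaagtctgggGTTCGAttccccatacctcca
R11.t1 (Tyr): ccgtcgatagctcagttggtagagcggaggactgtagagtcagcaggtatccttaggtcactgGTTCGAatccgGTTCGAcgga
F28H6.t1 (Arg): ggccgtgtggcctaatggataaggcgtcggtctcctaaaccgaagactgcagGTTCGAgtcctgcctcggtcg
H08J11.t5 (Gln): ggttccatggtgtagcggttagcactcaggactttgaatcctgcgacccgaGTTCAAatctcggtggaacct
F28H6.t2 (His): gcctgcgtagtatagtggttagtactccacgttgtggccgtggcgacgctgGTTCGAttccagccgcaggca

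A pair of stretches between neighbouring genes are shown because the peak summit fell there and not in a gene. The first is the plus strand of chrX:3036048-3036163, all 116 bp between the divergent genes M02F4.t2 (Glu) and M02F4.t1 (Gly), with the summit base in capitals. The second is the plus strand of chrX:8846505-8846792, 288 bp that hold the divergent Gly genes C28G1.t3 and C28G1.t2 in capitals and the 143 bp between them in lower case. Its summit was the base at position 102 of the stretch, counted from 1.
M02F4.t2 to M02F4.t1: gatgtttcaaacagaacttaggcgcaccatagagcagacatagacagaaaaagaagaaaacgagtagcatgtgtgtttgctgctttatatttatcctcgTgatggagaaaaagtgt
C28G1.t3 to C28G1.t2: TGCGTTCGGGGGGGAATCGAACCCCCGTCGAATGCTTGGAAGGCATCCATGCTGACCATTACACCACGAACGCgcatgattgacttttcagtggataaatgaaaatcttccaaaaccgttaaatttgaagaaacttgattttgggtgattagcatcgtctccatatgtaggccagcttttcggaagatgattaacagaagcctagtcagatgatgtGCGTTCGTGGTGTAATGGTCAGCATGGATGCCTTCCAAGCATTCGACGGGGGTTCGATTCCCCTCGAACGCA

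The X genes held 62 of the 91 thresholded peaks on X within 250 bp of a TSS (68.1%). Of these peaks 61 were the ones given to the 73 bound genes, 49 with 1 gene each and 12 with 2 genes each. Only 2 of those 61 peaks also had the TSS of a protein-coding gene within 250 bp of the summit. The strongest X tRNA peak ranked 31 of the 364 peaks of the thresholded list by signal value and 11 of its 343 nuclear peaks. Bound genes were spread along X, with 17 of 51 in the left part of 3 equal parts of the chromosome, 28 of 107 in the middle and 28 of 118 in the right. Among the autosomes the share ran from 11 of 78 genes on V (14.1%) to 15 of 57 on II (26.3%), so chromosome II stood about level with X.

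The signal value is the authors' own number for ChIP over control, and it can be compared only within a list. The ranked list of both samples holds 111547 peaks, against 364 in the thresholded list. It also keeps peaks with a high irreproducible discovery rate (IDR), which is low only where a peak holds its rank in both inputs. In the ranked list 248 of the 276 X genes had a summit within 250 bp (89.9%), against 297 of 336 autosomal genes (88.4%) and 89.1% of all nuclear tRNA genes. The share over all annotated genes was not counted for this list, so a ranked summit alone is not read as binding. Bound X genes had a median signal value of 81.5 (lowest 61.4, highest 153.8), and bound autosomal genes had a median of 72.1 (lowest 49.8, highest 110.0). The highest X values lay above every bound autosomal gene, and most values of both sets overlapped. The 175 X genes with a ranked summit that were not bound had a median of 39.9 (lowest 4.71, highest 73.9), and the 231 such autosomal genes had a median of 38.1 (lowest 4.03, highest 75.7). The thresholded list holds peaks with a global IDR under 0.01. Just inside that threshold lay C03B1.t1 (Trp) with an IDR of 0.00976 and a signal value of 65.1, and the neighbours F02D10.t2 (Ser) and F02D10.t1 (Glu) with 0.00891 and 70.3. Just outside lay F28H6.t1 (Arg) with 0.0104 and 73.9, and T14F9.t1 (Asp) with 0.0105 and 67.2. The signal values on both sides of the threshold therefore overlapped.

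Each sample also had lists of its own. In the thresholded list of replicate 1, 30 X genes had a summit (10.9%), against 25 autosomal genes (7.44%) and 8.99% of all nuclear tRNA genes. In that of replicate 2, 27 X genes had a summit (9.78%), against 9 autosomal genes (2.68%) and 5.88% of all nuclear tRNA genes. Both lists held 14 X genes and 3 autosomal genes. Of the 73 bound X genes, 14 were in both samples' lists, 22 in exactly 1 and 37 in neither. All 73 had a ranked summit in both samples. In the samples' own ranked lists their signal values had a median of 41.9 in replicate 1 (lowest 19.6, highest 87.4) and of 39.8 in replicate 2 (lowest 19.9, highest 76.4). Over the 195 X genes with a ranked summit in both samples, the values correlated with a Spearman rho of 0.54 and a Pearson r of 0.55 on the log2 scale. Over the 73 bound genes rho was 0.24 and r was 0.26. Those genes were selected by the list of these same samples together, which leaves out low values and can lower a correlation. The difference from 0.54 was therefore not read as poorer agreement. The points share a control alignment and, for neighbouring genes, a peak, and the 73 genes stand for 61 peaks.

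**Figure D1:**
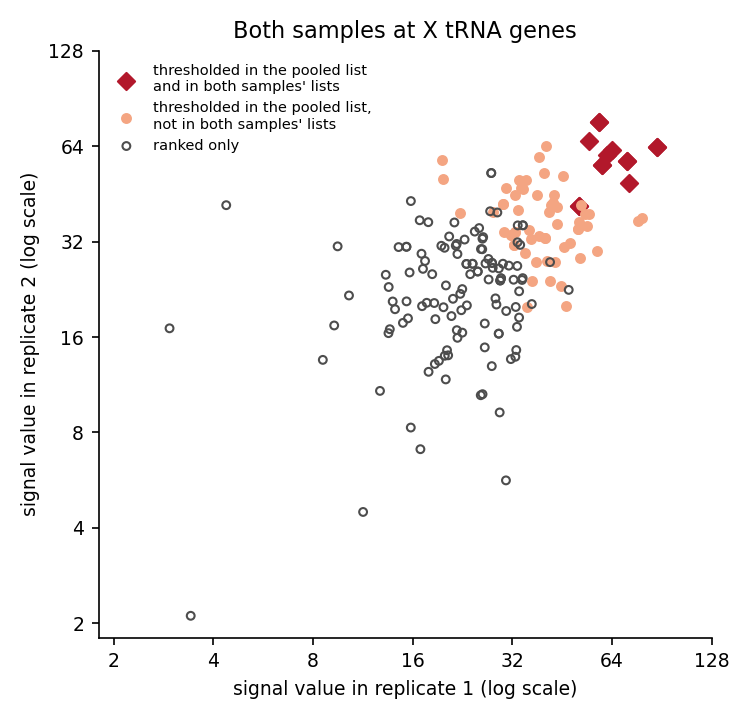
Signal value of each X tRNA gene in replicate 1 (x axis) and in replicate 2 (y axis), both on a log scale without unit, for the 195 genes with a ranked summit in both samples. Diamonds are the 14 genes in both samples' thresholded lists, several of which coincide because they share a peak, filled circles the other bound genes, and open circles genes with a ranked summit only. The 14 genes, picked by their place in both lists, sit toward the upper right. The other bound genes spread between 19.6 and 78.6 in replicate 1, and some lie among the 14.

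The 14 genes in both samples' lists were M02F4.t1 and M02F4.t2, C53C7.t1 and C53C7.t2, T03G6.t1, ZK563.t1, F15G9.t1 and F15G9.t2, C33G3.t2, R11.t1, K01A12.t4 and K01A12.t5, and C28G1.t2 and C28G1.t3. The 5 pairs that share a stem name are neighbours with a shared peak, so the 14 genes stand for 9 peaks. The strongest peak lay between M02F4.t2, a Glu gene (anticodon CTC), and M02F4.t1, a Gly gene (TCC), with a signal value of 153.8 in the list of both samples, 87.4 in replicate 1 and 63.8 in replicate 2. The Ser genes C53C7.t2 (X, 13046366 to 13046447) and C53C7.t1 (X, 13046578 to 13046659) shared a peak of 127.6, with 70.8 in replicate 1 and 57.4 in replicate 2. In each sample's own list both peaks stood well above the median of the bound X genes, 41.9 in replicate 1 and 39.8 in replicate 2.

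The next peaks lay at genes inside introns of protein-coding genes. T03G6.t1, a Gly gene (GCC; X, 2613243 to 2613313) in an intron of T03G6.3 on the opposite strand, had 126.0 in the list of both samples, 54.4 in replicate 1 and 66.5 in replicate 2. ZK563.t1, the Thr gene (AGT) shown above, lay in an intron of ZK563.2 on the opposite strand and had 126.0, 64.2 in replicate 1 and 62.2 in replicate 2. F15G9.t1 and F15G9.t2, 2 Ala genes in tandem inside him-4, which encodes the extracellular matrix protein hemicentin, shared a peak of 123.1, with 58.6 in replicate 1 and 76.4 in replicate 2. These 4 genes were among the highest in replicate 2, and the him-4 peak was the highest X tRNA value of that sample.

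C33G3.t2 (Lys, TTT) had 117.9 in the list of both samples, 71.9 in replicate 1 and 48.8 in replicate 2, and R11.t1 (Tyr, GTA) had 113.6, 61.6 and 60.1 in the same 3 lists. K01A12.t4 and K01A12.t5, 2 Cys genes inside K01A12.3, shared a peak of 101.6, with 59.7 in replicate 1 and 55.8 in replicate 2. C28G1.t3 and C28G1.t2 shared a peak of 86.8, with 50.8 in replicate 1 and 41.6 in replicate 2. All of these passed the threshold in each sample alone.

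Other strong X genes passed in 1 sample's list. T25B6.t2 (Thr, TGT) had 119.9 in the list of both samples, 78.6 in replicate 1 and 38.0 in replicate 2, and C04A11.t1 (Leu, CAA) had 114.1, 76.6 and 37.2 in the same order. Both were in the list of replicate 1 only. F41D9.t3 (Asn), inside sulp-3, a gene of the sulfate permease family, had 104.5 with 40.4 in replicate 1 and 64.0 in replicate 2, and C02B4.t2 (Tyr), inside the nuclear hormone receptor gene nhr-17, had 99.0 with 45.4 and 51.4. Both were in the list of replicate 2 only.

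By isotype, bound X genes were most frequent among genes for Ala, Gly, Glu and Pro, and none was bound among those for Arg, Gln, His and Met. The place of Pro rested on shared peaks: with each summit given to its nearest gene only, 5 of 20 Pro genes were bound, a smaller share than for Tyr, Asn, Lys or Ser. The other 16 of the 20 isotypes on X had at least 1 bound gene. For Ala 9 of 13 X genes were bound, against 7 of 21 on the autosomes. For Gly 10 of 20 were bound, against 10 of 35, and for Glu 10 of 23, against 3 of 18. For Pro 8 of 20 were bound, against 3 of 22, and for Ser 7 of 18, against 4 of 21. Tyr had 3 of 8 X genes bound and 0 of 11 on the autosomes. These isotypes had a larger bound share on X than on the autosomes.

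Lys had 5 of 18 X genes bound, against 5 of 28 on the autosomes, and Asp had 4 of 12, against 3 of 15. Asn had 2 of 6, against 3 of 14, and Cys had 2 of 7, against 1 of 6. Leu had 3 of 17, against 3 of 22, and Phe had 1 of 6, against 0 of 8. In 4 isotypes with a bound X gene the X share was the smaller: Thr had 3 of 14 against 5 of 20, Val 3 of 14 against 4 of 17, Trp 1 of 5 against 2 of 7 and Ile 2 of 13 against 5 of 16. Over the 20 isotypes, the bound share on X and on the autosomes had a Spearman rho of 0.16, and the median ranked signal value had 0.05. Each isotype has few genes, so such shares have wide counting error. The 3 X genes to which the annotation gives no isotype were not bound, and neither were the 2 on the autosomes.

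**Figure D2:**
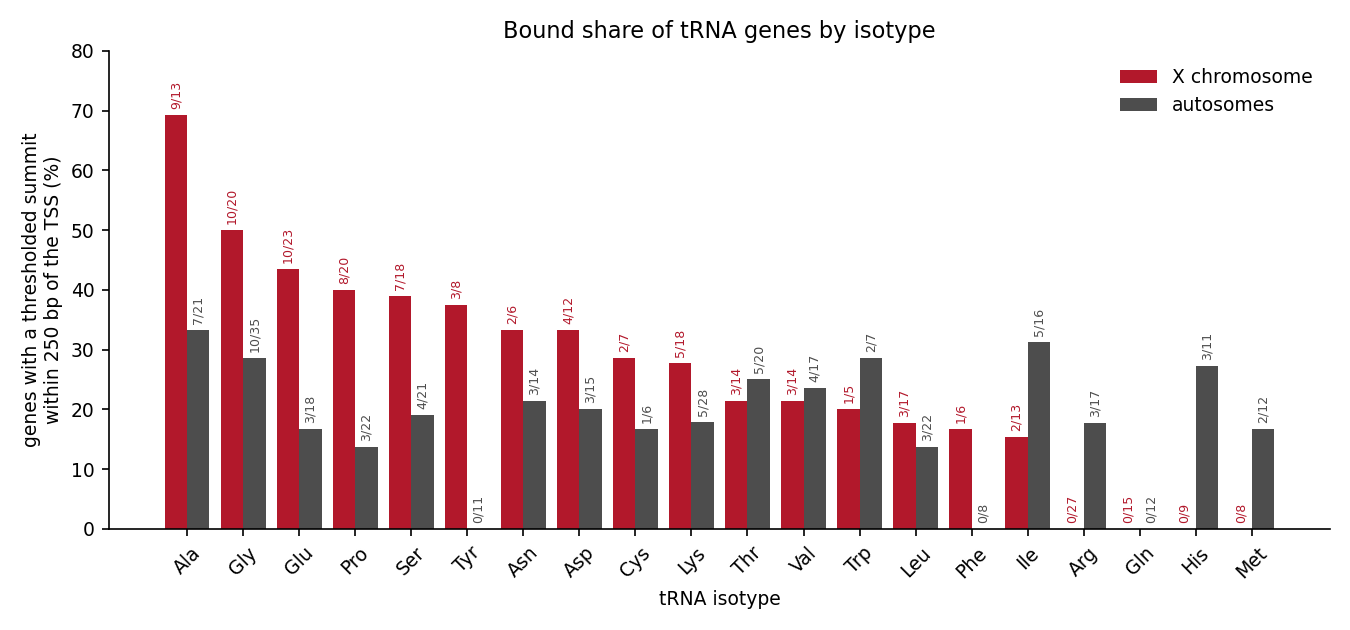
Percent of tRNA genes bound (y axis) by isotype (x axis, ordered by the X share), with X as the left bar and the autosomes as the right bar of each pair. Numbers over the bars are bound genes over all genes. Ala stands highest on X with 9 of 13, and the X bars of Arg, Gln, His and Met are at 0.

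The 4 isotypes without a bound X gene had 59 genes on X. They were grouped because they had none, so their count of 0 is a description and supports no contrast with the autosomes, where 8 of 52 were bound. Of these X genes 47 had a ranked summit, with a median signal value of 42.8 and a highest value of 73.9. Of the autosomal genes of these isotypes 44 had one, with a median of 43.4 and a highest value of 94.3. The medians of these X and autosomal genes were close. The 217 X genes of other isotypes had a median of 51.8 over the 201 with a ranked summit. Arg had 27 X genes, led by F28H6.t1 (CCT), which was in the list of replicate 1 with 41.6 and not in that of replicate 2 with 27.6. Gln had 15 X genes, led by F54F7.t1 and F54F7.t2 at 70.2. That pair was in the list of replicate 2 with 52.7 and not in that of replicate 1 with 27.6. Met had 8 X genes, led by C02F12.t1 at 57.9, and His had 9, led by C06G1.t1 at 56.4. The absence of calls moved with the window and the list: 2 Arg genes were called with a window of 500 bp, 3 Arg genes and 1 Gln gene were called in the authors' conservative list, and 5 Arg, 2 Gln, 2 His and 1 Met gene at an IDR under 0.05. The window of 500 bp can reach a neighbour's peak. At the Arg gene K01A12.t1 it took in the summit inside the Cys gene K01A12.t4, while the ranked value of K01A12.t1 within 250 bp was 11.9.

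**Figure D3:**
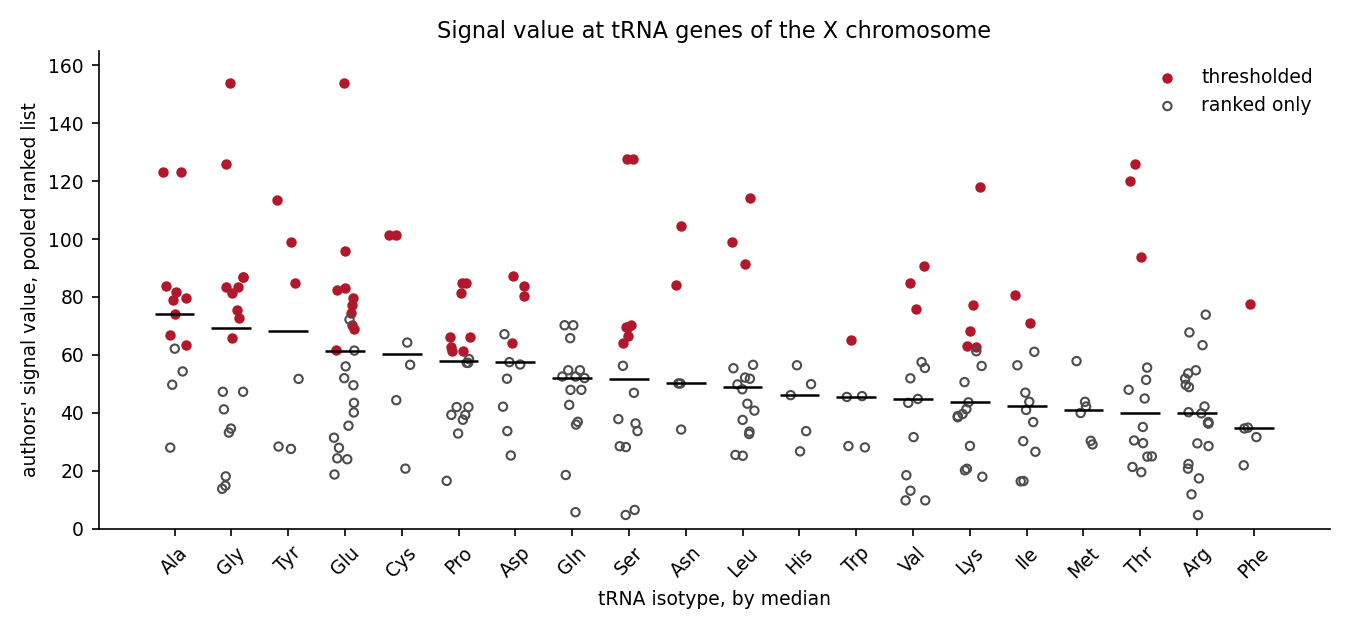
The authors' signal value in the ranked list of both samples (y axis) at each X tRNA gene with a ranked summit, by isotype (x axis, ordered by median, horizontal lines). Filled points are bound genes and open points are genes with a ranked summit only. The highest open point is the Arg gene F28H6.t1 at 73.9, and filled points begin at 61.4.

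The strongest X gene of each remaining isotype was also bound. F59C12.t3 led the Val genes at 90.6, with 39.7 in replicate 1 and 52.6 in replicate 2. F59C12.t2 led the Asp genes at 87.2, with 42.6 and 44.7 in the same order. C16B8.t2 and C16B8.t3, neighbours with a shared peak, led the Pro genes at 84.7, with 42.5 in each sample. C02B4.t1 led the Ile genes at 80.7, with 35.2 in replicate 1 and 50.1 in replicate 2. T28B4.t1, inside fbxl-4, an F-box gene, led the Phe genes at 77.6, with 47.7 in replicate 1 and 31.7 in replicate 2. C03B1.t1 led the Trp genes at 65.1, with 41.7 in replicate 1 and 24.0 in replicate 2. Of these leaders C02B4.t1 was in the list of replicate 2, and none of the others was in a sample's own list.

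Anticodons were read from the gene sequence for 268 of the 276 X genes. In some isotypes the bound share differed between anticodons, and in others it did not. Of the Glu genes, 6 of 8 with anticodon TTC were bound and 4 of 15 with CTC, with median ranked signal values of 73.3 and 43.5. Among Ala genes 7 of 9 with AGC and 2 of 3 with TGC were bound, and among Gly genes 3 of 4 with GCC and 7 of 16 with TCC. No Arg or Gln gene of any anticodon was bound, among them 13 Arg genes with ACG and 12 Gln genes with TTG. Few were bound in other large sets, with 1 of 10 Leu genes with AAG, 1 of 11 Ile genes with AAT and 1 of 10 Val genes with AAC. Genes with the same anticodon are mostly copies of each other, so these counts and those of identical copies describe much the same genes.

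Identical gene sequences were compared because copies share their internal promoter letter for letter. The X genes held 33 groups of 2 or more identical copies on X, with 203 genes, and 73 genes with no identical copy on X, of which 16 were bound. In 23 groups some copies were bound and others not, in 10 groups no copy was bound, and in 0 groups all were. The 12 identical Glu genes (CTC) had 4 bound copies and ranked signal values from 24.0 to 153.8. The highest was that of M02F4.t2, whose peak was shared with M02F4.t1 and lay nearer to that gene, and the next was C04C11.t1 at 82.3. Another bound copy, F02D10.t1, was called through a summit inside the neighbouring Ser gene F02D10.t2. The 7 identical Thr genes (AGT) to which ZK563.t1 belongs had 1 bound copy, ZK563.t1 itself, and values from 21.3 to 126.0. Copies in these 2 groups thus differed several-fold in ranked signal value. The ratio of highest to lowest value varied between groups, for example 1.71 in the 8 identical Glu genes (TTC) and 14.4 in the 10 identical Arg genes (ACG). The lowest values came from ranked summits of genes that were not bound, which alone are not read as binding.

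Of 7 identical Ala genes (AGC) 6 were bound, and of 8 identical Glu genes (TTC) also 6, the largest shares among groups of more than 4 copies. The bound Ala copy F15G9.t2 was called through a summit inside its neighbour F15G9.t1, an Ala gene with TGC. Of the 11 identical Gly genes (TCC) 5 were bound, and of the 13 identical Pro genes (TGG) 4. None of the 10 identical Arg genes (ACG) was bound, with values from 4.71 to 67.8, and none of the 9 identical Gln genes (TTG), with values from 5.72 to 70.2. The 8 identical His genes (GTG) on X had 0 bound copies and a highest value of 56.4, while the 3 autosomal copies of the same sequence were all bound. Of the X copies 6 lay in the F28H6 cluster, where 0 to 76.2% of the 31-base words around the TSS occur once in the genome, against 60.1%, 78.6% and 80.8% at the autosomal copies. The other X copies, C49F5.t1 with 78.3% and C06G1.t1 with 79.4%, were within the range of the autosomal ones and were not bound. The part of this in the calls was not tested.

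**Figure D4:**
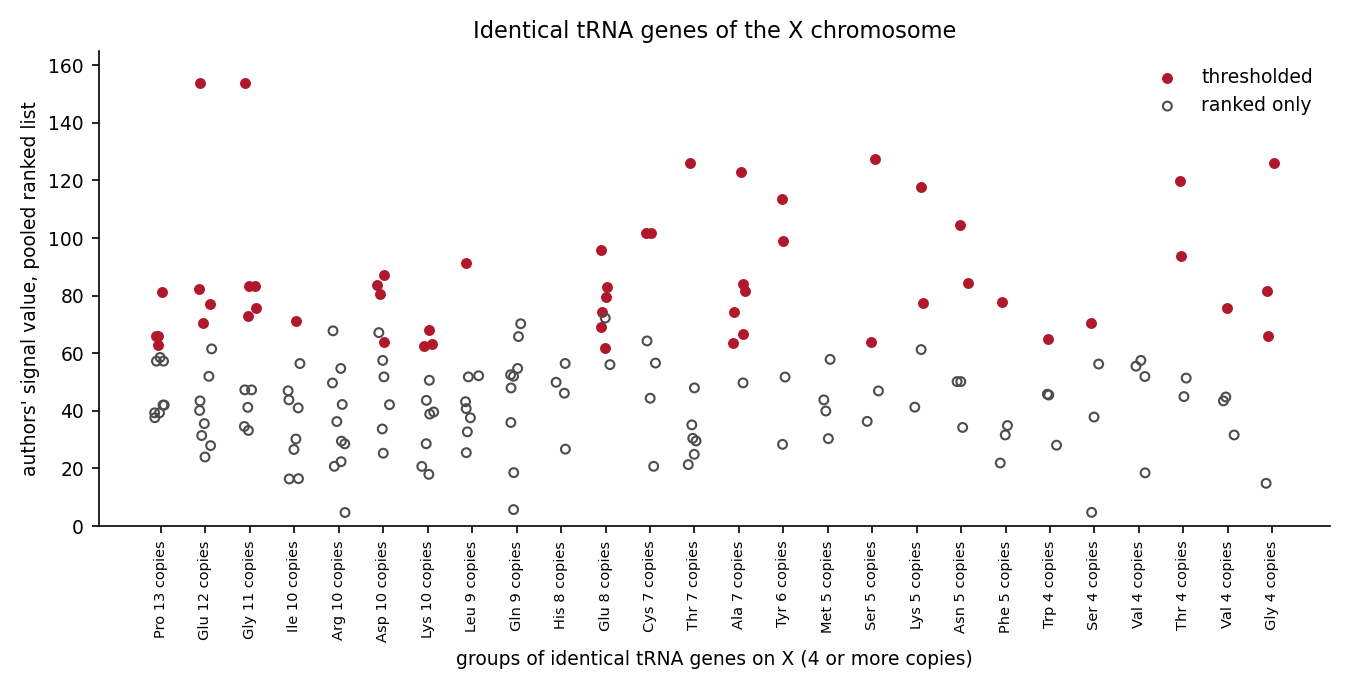
The authors' signal value in the ranked list of both samples (y axis) at the copies of each of the 26 groups of 4 or more identical X tRNA genes (x axis, by isotype and number of copies). Filled points are bound copies and open points are copies with a ranked summit only. At least 1 copy was bound in 21 of the 26 groups and all copies in none of them, as in the group of 7 Thr genes with values from 21.3 to 126.0.

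Reads from identical copies can be placed only by their flanks, so the share of 31-base words within 140 bp of each TSS that occur once in the genome was counted. Its median was 80.8% over the 73 bound X genes, 80.4% over the 175 that had a ranked summit and were not bound, and 80.1% over the 28 with no ranked summit. In groups with both bound and other copies the medians were 80.4% for bound copies and 79.5% for the others. Bound copies had the higher median in 11 of the 23 groups and the others in 9. This measure was therefore about equal between bound genes and the rest. It differed at the low end, where 0 of the 9 X genes with under 50% unique words were bound and 4 had a ranked summit. Genes with 10 or more copies in the genome were bound in 47 of 155 cases, those with 2 to 9 copies in 15 of 66, and those that occur once in 11 of 55. How the authors' aligner treated reads that fit several copies is not given in the sources used here.

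Summits at bound genes lay mostly on the gene itself. Among the 39 bound X genes with no other tRNA TSS within 1000 bp, the summit lay at a median of 27 bp into the gene from its TSS (range −43 to 114). It was inside the gene at 30 of them, upstream at 6 and past the end at 3. In the samples' own ranked lists the median for these genes was 25 bp in replicate 1 and 33 bp in replicate 2. The 40 such autosomal genes had a median of 17.5 bp, with 25 summits inside the gene, 11 upstream and 4 past the end. Ranked summits at the 96 such X genes that were not bound had a similar median of 25 bp and a wider range, −208 to 193, with 47 inside the gene. Over all 73 bound X genes, shared peaks included, the median was 21 bp, with 46 summits inside the gene.

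**Figure D5:**
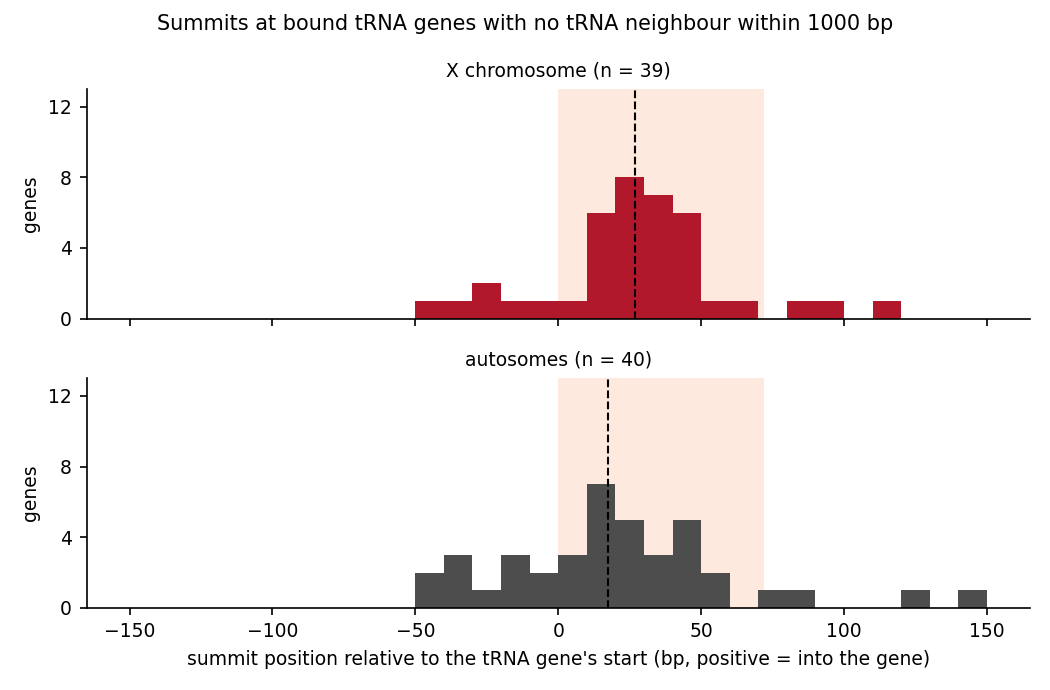
Number of bound tRNA genes (y axis) by the position of the summit relative to the TSS (x axis, bp, positive into the gene, bins of 10 bp), for genes with no other tRNA TSS within 1000 bp, with 39 X genes above and 40 autosomal genes beneath. Shading marks the first 72 bp, the median length of a bound X gene, and dashed lines mark the medians of 27 and 17.5 bp. Most summits fall within the shaded gene body on X.

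The letter matches counted for the internal promoter were about as frequent in bound genes as in others. On the gene strand, GGTTCGA lay in 177 of the 276 X genes (64.1%), against 64.9% of autosomal tRNA genes and 0.300% of windows of 72 bp at the TSS of protein-coding genes. Of the X genes with GGTTCGA 45 of 177 were bound, and of those without it 28 of 99. GTTCGA, which lies within GGTTCGA, was in 200 X genes, of which 50 were bound, and 23 of the 76 without it were bound. GTTCAA, added after the sequences were seen, lay in 68 X genes, of which 21 were bound. TGGCNNAG, a form of the A box core, lay in 42 X genes, of which 9 were bound, and 64 of the 234 without it were bound. Other forms, such as TAGCTCAG, were not counted, so genes without the match do not all lack an A box. TTTT within 30 bp past the gene's end was present at 273 X genes and at all 73 that were bound, against 49.4% of the ends of protein-coding genes. A match of letters is a description and does not show that a factor binds there. In the genes shown above, ZK563.t1 holds 2 adjacent matches to TGGCNNAG, R11.t1 holds 2 matches to GTTCGA, and the Gln gene H08J11.t5 holds GTTCAA. The repeated matches are not read as extra boxes, and that of R11.t1 lies near the 3′ end of the gene.

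Host gene and strand were then compared. Of the 96 X tRNA genes that overlap a protein-coding gene 22 were bound (22.9%, 15.6 to 32.3), and of the 180 outside such genes 51 (28.3%, 22.3 to 35.3). On the same strand as the host 13 of 51 were bound and on the opposite strand 9 of 45. An intron held 95 of the 96, of which 21 were bound. The exception, the Glu gene C28G1.t1, overlapped an exon of C28G1.2 on the same strand and was bound, with a signal value of 95.7, 54.5 in replicate 1 and 39.2 in replicate 2. Genes on the plus strand were bound in 36 of 136 cases and those on the minus strand in 37 of 140. The intervals of these shares overlapped in each comparison.

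Many X tRNA genes lie in clusters, taken here as runs of genes whose neighbouring TSSs are under 1000 bp apart. The 276 genes fell into 198 such runs, 145 of them single genes, and 59 runs held a bound gene. Single genes were bound in 39 of 145 cases (26.9%), genes in clusters of 2 in 25 of 78 (32.1%), and genes in clusters of 3 in 6 of 27 (22.2%). In the 5 clusters of 4 or more genes 3 of 26 genes were bound (11.5%, 4.0 to 29.0). Most genes of these clusters were not bound, over few genes, and the interval includes the 26.4% of all X genes. Of the 5 clusters 2 held a bound gene. On the autosomes 2 of 8 genes in clusters of 4 or more were bound. The F28H6 cluster holds only His genes and the H08J11 cluster only Gln genes, isotypes with no bound X gene. Size was not tested apart from isotype or repeated sequence in these large clusters.

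The largest were F22F1.t2 to F22F1.t7, 6 genes for Asp, Ile, Met and Ser (X, 8154445 to 8156707), and F28H6.t2 to F28H6.t7, 6 His genes (X, 14135045 to 14137010), with 0 bound genes in both. The first had a highest signal value of 56.7. The second had ranked summits at 2 of its genes, with a highest value of 49.9, and unique 31-base words made up 0 to 76.2% of the windows. The 5 Gln genes of the H08J11 cluster lay inside ajm-1, which encodes a protein of apical cell junctions, and 0 were bound. All had a ranked summit within 250 bp, with a highest value of 54.7, but summits were shared. H08J11.t5 and H08J11.t1 had the same summit of 47.9, and H08J11.t2 and H08J11.t3 the same summit of 54.7. H08J11.t4 had only a summit of 5.72, which lay 245 bp downstream of its TSS. In the 5 genes of the K01A12 cluster, inside K01A12.3, only K01A12.t4 and K01A12.t5 were bound. Of the 4 Tyr genes R11.t1 to R11.t4 only R11.t1 was bound, and 2 had a ranked summit.

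Neighbouring X tRNA genes with TSSs within 500 bp formed 24 divergent, 14 convergent and 20 tandem pairs. At least 1 gene was bound in 9 divergent pairs, 3 convergent pairs and 5 tandem pairs. A shared peak was given to both genes of 7 divergent, 1 convergent and 4 tandem pairs. In 4 of the 7 divergent pairs the summit lay between the genes and in 3 inside a gene, while in the 4 tandem pairs it lay inside a gene each time. The 18 divergent autosomal pairs had 4 shared peaks, with 0 summits between the genes. The 4 X pairs were M02F4.t2 and M02F4.t1, C28G1.t3 and C28G1.t2, C53C7.t2 and C53C7.t1, and ZK678.t5 and ZK678.t2, with TSSs 117, 144, 131 and 162 bp apart. In the M02F4 stretch shown above the summit lay 17 bp upstream of the TSS of M02F4.t1 and 100 bp upstream of that of M02F4.t2. In the C28G1 stretch it lay 29 bp upstream of C28G1.t3 and 115 bp upstream of C28G1.t2.

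A list mainly of protein-coding genes for RNA polymerase III, its factors and tRNA processing was also looked up. Of 33 symbols 28 were matched, and 0 of them had a thresholded summit within 500 bp of the TSS, beside 0.516% of all nuclear protein-coding genes. With so small a share and so few genes, the count of 0 is not read as a result about the list.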

How the data were processed

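ChIP-seq peaks came from 2 samples of 1 group. The authors deposited thresholded and ranked peak lists on assembly ce11 (the sequence of WBcel235), per the file names and the deposited notes: a pair for each sample, a pair for both together and a conservative pair. The notes name 1 control alignment, and for thresholded lists they add 1 input file of undescribed content. The signal value of a peak is the authors' own and is comparable within a list only. In the deposited ranked lists a further column holds −log10 of each peak's global IDR. The sources used here name no aligner or peak caller. No list gives read counts, so the depth is unknown. The 8 columns of input values were not used.

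Summits were matched to TSSs of Ensembl release 115 with Python 3.11.15, pandas 2.3.3 and numpy 2.4.6. Where several summits lay within 250 bp, the one of highest signal value was kept. Isotypes came from the RefSeq annotation, sequences from its genome, and anticodons from a 5-base anticodon stem that fits the isotype. The matching was tested on simulated peaks. Intervals are 95% Wilson intervals from scipy 1.17.1. No test was run. Members, gene lists, motifs and the sequences shown were chosen with earlier results of these data known. Genes were named by rule: the 12 strongest X regions, up to 12 genes in both samples' lists, the strongest of each isotype, the 4 largest clusters and the genes next to the IDR threshold; others were chosen after their values were seen. Alternatives changed the window, list, IDR threshold, samples and handling of copies.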

Additional observations from a re-analysis of the deposited data

How the results depend on the processing

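The X share was above the autosomal share in all 10 alternatives in which the window, list, samples or assignment of summits changed. These alternatives use the same 2 samples and share most of their genes with the main list. Their common direction is therefore no separate support for a difference, which was not tested. The X count of 73 stayed within 1.5 times under windows of 100 bp (62) and 500 bp (78), in the conservative list (73, of which 65 were the same genes) and with each summit given to its nearest gene only (61, chosen after seeing the data). The X count moved to 110 genes (39.9%) at an IDR under 0.05, against 34.2% of autosomal genes. It moved to 15 genes (5.43%) at an IDR under 0.001, against 1.19%. Among the 50% of peaks with the highest signal value it was 46 genes (16.7%), against 7.44%. With 1 replicate left out, the remaining sample's own list called 27 to 30 X genes (9.78 to 10.9%), against 2.68 to 7.44% of autosomal genes. With identical sequences counted as 1 gene, bound if any copy was, the shares were 36.8% on X and 29.2% on the autosomes. The other results had fewer alternatives. The median signal value of 81.5 was 81.5 with the nearest summit and 81.2 over distinct peaks. The median offset of 21 bp was 27 bp at genes with no other tRNA TSS within 1000 bp. The share inside host genes of 22.9% was 22.1% for genes wholly inside an intron. No values were taken for these results under the other windows, thresholded lists or IDR thresholds. No paired analysis was possible because there was 1 group. Repeated sequence and the lack of read counts limit all values, and without an untagged sample analysed here, enrichment of the tagged protein cannot be told apart from enrichment that untagged worms would give.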

Other observations

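Of the X genes, 7 lay in a sample's own thresholded list and were not bound in the list of both samples. They were F22F1.t5 (Asp), K11E4.t5 (Lys) and F28H6.t1 (Arg) in that of replicate 1, and F12D9.t6 (Cys), F12D9.t1 (Cys), F54F7.t1 (Gln) and F54F7.t2 (Gln) in that of replicate 2. They were chosen after their values were seen.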
